A study of Stylosanthes guianensis with 6 samples.

Results

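MATE (multidrug and toxin extrusion) efflux transporters were examined in roots of stylo (Stylosanthes guianensis), a tropical forage legume, grown with and without phosphate (Pi). The set holds the 8 unigenes, out of 173014 in the study's assembly, that its table of changed transporters describes as MATE efflux family protein 5, 5-like, 8-like or DTX1-like. They are 8 of the 20 unigenes of the dicarboxylate transporter section of that table, which lists 279 transporter unigenes in all. The table itself was selected on the difference between the low and the high phosphate libraries (a q-value under 0.05 and a log2 fold change of 1 or more in size). The difference of each member between the treatments is therefore a description of what chose it, and where a fit over all unigenes calls a member, that call is a description too and no independent evidence.

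MATE proteins are membrane carriers that move organic compounds out of the cytosol, into the soil, the cell wall space, the xylem or the vacuole, in exchange for protons or sodium ions. In plant roots the family is best known for the release of citrate, which binds aluminum and iron and frees phosphate that these metals hold, and other members carry flavonoids, alkaloids, hormones and foreign compounds. The names of the 8 unigenes are sequence matches to other plants. DTX1 of Arabidopsis is a plasma membrane efflux carrier for plant alkaloids, antibiotics and cadmium, whereas no substrate comes with the names MATE efflux family protein 5 and 8.

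Seedlings of the cultivar RY2 (Reyan 2) were germinated for 3 d, kept for 14 d in a nutrient solution with 250 μM KH2PO4 and then supplied with 0 μM (LP) or 250 μM (HP) KH2PO4 for 21 d at the same pH, before roots were harvested for RNA-seq. Each treatment had 3 libraries, and each replicate was a hydroponic box of 3 seedlings. In the sample labels, however, the phosphorus field reads 250 μM where the title says LP and 0 μM where it says CK, which is opposite to the study. The doses of the study were used here, and every direction given below rests on the titles and on that choice.

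The libraries held 15586189 to 17820914 estimated read counts under HP and 20643113 to 21784583 under LP, so that the LP libraries were the deeper ones. The first principal component of the log2 CPM values (counts scaled to a common library size) took 49.5% of the variance and separated the treatments, and the second took 14.8% and set HP replicate 2 apart from the other libraries. The extraction text of the labels speaks of leaves, whereas the tissue field names roots. The root-type high affinity nitrate transporter 2.4-like Cluster-8255.68588 was read in all 6 libraries, at 897.63 to 962.83 FPKM (fragments scaled by unigene length and library size) under HP and 13.69 to 22.16 FPKM under LP. A SHORT-ROOT-like unigene, Cluster-8255.66205, was at 0 FPKM in the HP libraries and at 0.33 to 0.79 FPKM under LP. The 4 photosynthesis unigenes found in the readable part of the study's list of changed unigenes summed to 0 to 0.27 FPKM under HP and 41.24 to 52.46 FPKM under LP, and all 4 were higher under LP. They were selected on the same difference as the MATE unigenes, and their part in the results below was not tested.

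The only designed sequences at hand for a member are the qRT-PCR primers of the 8-like unigene Cluster-8255.22361. They are shown because the study listed them for measuring this transcript by qRT-PCR. Where they bind, and whether they also match other unigenes, was not tested. The capitals mark the 5 bases at the 3′ end from which each primer is extended.
Forward primer of Cluster-8255.22361: ttgcagaagctccaaCACCA
Reverse primer of Cluster-8255.22361: ccgacccacctagtgAGACA
Both primers are 20 bases long, with a GC content of 50% in the forward and 60% in the reverse primer. Cluster-8255.22361 is one of the members that were nearly undetected under HP, with values given further on.

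Among the 8 MATE unigenes, 5 had a higher mean level under LP (both named MATE efflux family protein 5, the 8-like unigene, 1 of 2 DTX1-like and 1 of 3 5-like unigenes) and 3 had a lower one (the other 2 5-like unigenes and the other DTX1-like unigene). The libraries of LP and HP did not overlap for 7 of the 8, and the exception was the DTX1-like Cluster-8255.47682. Selection on this difference favours such a separation. The share of all unigenes without overlap was not computed, and nothing is read from this count. A quasi-likelihood fit over all unigenes in edgeR, with p-values adjusted by the Benjamini-Hochberg method and the same limits of 0.05 and 1, called 8183 of 62040 tested unigenes (13.2%), of which 3780 were higher under LP (6.09% of those tested) and 4403 lower (7.1%). Of the 8 members, 6 passed its filter on low counts, 3 were called higher, 2 were called lower and 1 was not called. Because the same difference chose the members, nothing is read from their count against these shares. In root tissue as a whole, more RNA per cell and more cells of a type that holds the transcript cannot be told apart.

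**Figure D1:**
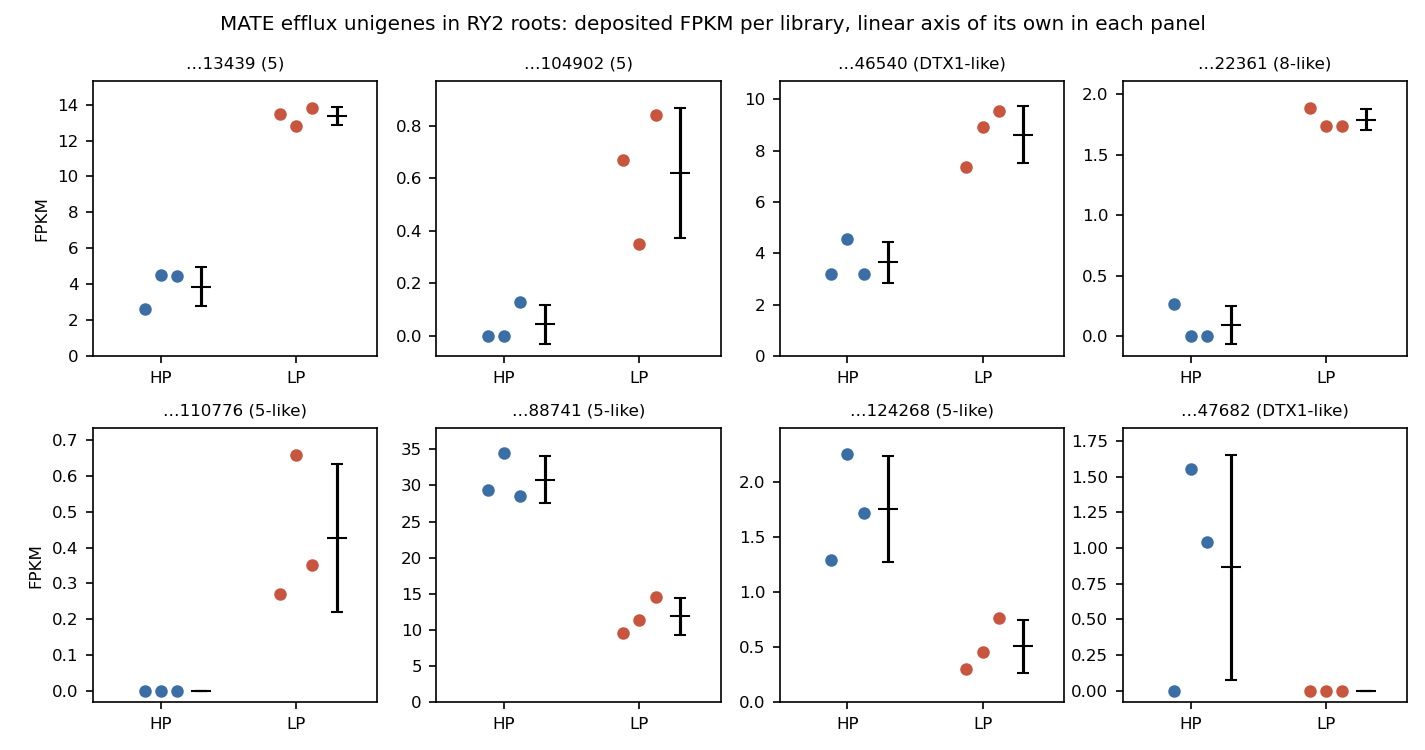
FPKM (y axis, linear and separate for each panel) of the 8 MATE unigenes in the 3 HP (blue) and 3 LP (red) libraries, with the mean and the SD over libraries in black; numbers are the last part of the unigene identifier, with the name given by the study in parentheses. The 2 groups of points overlap only for Cluster-8255.47682, where HP replicate 1 is at 0 like the LP libraries, and 5 unigenes are higher and 3 lower under LP.

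Cluster-8255.13439, named MATE efflux family protein 5, was the most abundant of the unigenes that were higher under LP. It was at 2.60, 4.50 and 4.45 FPKM in the HP libraries and at 13.46, 12.80 and 13.80 FPKM in the LP libraries. Its LP libraries lay close together, while HP replicate 1 was the lowest of the 6. The mean normalized count was 109.7 ± 31.8 (SD, n = 3) under HP and 384 ± 22.0 (n = 3) under LP, a 3.50-fold difference (log2 fold change 1.81 ± 0.27, SE over libraries), which ranged from 3.00-fold without HP replicate 1 to 3.85-fold without HP replicate 2. Its estimated count was not a whole number in any of the 6 libraries, so RSEM had divided some of its reads with other unigenes, and its level is uncertain to that extent.

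The second unigene of that name, Cluster-8255.104902, was much rarer. Its estimated counts were 0, 0 and 3.47 under HP and 24.38, 12 and 29.47 under LP, or 0, 0 and 0.13 FPKM against 0.67, 0.35 and 0.84 FPKM. Every LP library was above every HP library, but all HP reads came from HP replicate 3. Of its 4 estimated counts above 0, 3 were not whole. The 3 HP reads and 65 LP reads gave a ratio of normalized reads of 17.2, with a 95% exact counting interval of 5.63 to 85.5 that covers counting error only. Without HP replicate 3, no HP read was left and the bound was at least 11.6-fold higher under LP, and without HP replicate 1 the ratio was 11.0. This was the member that was tested and not called, with a biological coefficient of variation (BCV) of 0.642, against a common value of 0.42 over all tested unigenes.

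Cluster-8255.46540, the DTX1-like unigene that was higher under LP, had 3.19, 4.57 and 3.20 FPKM in the HP libraries and 7.38, 8.93 and 9.56 FPKM in the LP libraries. Its groups did not overlap, and the highest HP library was HP replicate 2. The normalized count was 84.4 ± 19.2 (n = 3) under HP and 200.1 ± 28.0 (n = 3) under LP, which is 2.37-fold (log2 fold change 1.25 ± 0.21, SE). The fold ranged from 2.22 without LP replicate 3 to 2.73 without HP replicate 2. Of the tested members it lay closest to the fold change limit of the table that chose them, with the 5-like Cluster-8255.88741 at -1.36 next. MATE unigenes just outside that limit are not named in the sources used here. As for Cluster-8255.13439, none of its 6 estimated counts was whole.

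The other DTX1-like unigene, Cluster-8255.47682, ran the opposite way. It was listed at 0, 1.55 and 1.04 FPKM under HP, from estimated counts of 0, 49.01 and 34.52, and at 0 in all 3 LP libraries. HP replicate 1 was thus like the LP libraries, although it was the deepest HP library. In pooled reads, 84 under HP against none under LP, set against a floor of 3 reads over the group, gave a bound of at least 35.3-fold lower under LP. This covers counting error only and not the spread between libraries, which overlapped. Neither of the 2 estimated counts above 0 was whole. The bound rests on few libraries, and was 21.3 without HP replicate 2, 55.3 without HP replicate 1 and 23.2 without LP replicate 1. It had reads in 2 of the 6 libraries, fewer than the filter asks for, and was not tested. The 2 DTX1-like unigenes summed to 3.19, 6.12 and 4.24 FPKM under HP and 7.38, 8.93 and 9.56 FPKM under LP, so that the signal under this name was 1.91-fold higher under LP with no overlap between the groups.

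Cluster-8255.22361, the 8-like unigene with the primers shown above, had estimated counts of 3.41, 0 and 0 under HP and of 28.84, 25.29 and 25.82 under LP. In FPKM it stood at 0.27, 0 and 0 against 1.89, 1.74 and 1.74. The 3 LP libraries were nearly equal, and the few HP reads came from HP replicate 1. For Cluster-8255.22361, none of the 4 estimated counts above 0 was whole, so some of its reads were divided with other unigenes. With 3 HP reads against 80 LP reads, the ratio of normalized reads was 21.2 (95% exact counting interval 6.98 to 105, which covers counting error only). Without HP replicate 1 it became a lower bound of 13.5-fold. Its mean FPKM was above that of 1.15% of the tested unigenes under HP and of 42.8% under LP. It passed the filter on low counts through its LP libraries alone, which in itself puts it low among the tested unigenes under HP. Nothing is read from the difference between these 2 positions.

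The 3 unigenes named MATE efflux family protein 5-like differed from each other. Cluster-8255.110776, which was also matched to MATE efflux family protein 7, was not detected under HP. Its estimated counts were 0 in the 3 HP libraries and 11.07, 25.45 and 13.84 in the LP libraries, or 0.27, 0.66 and 0.35 FPKM. None of the LP counts was whole. Against the floor of 3 reads over the group, its 50 LP reads made it at least 13.2-fold higher under LP, or at least 8.44-fold without HP replicate 1. Its counts were too low for the filter, and it was not tested.

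Cluster-8255.88741 was the most abundant MATE unigene of the set under HP and was lower under LP. It was at 29.41, 34.54 and 28.52 FPKM in the HP libraries, from 314, 324 and 277 counts, and at 9.66, 11.40 and 14.61 FPKM in the LP libraries, from 125, 140 and 184 counts. The lowest HP library was well above the highest LP library, and the spread within either treatment was small against the gap. The normalized count was 346 ± 40.2 (n = 3) under HP and 134.7 ± 30.8 (n = 3) under LP, which is 2.57-fold lower (log2 fold change -1.36 ± 0.21, SE). The fold lay between 2.35 without LP replicate 1 and 2.94 without LP replicate 3. All 6 of its counts were whole numbers, as they were for 18.2% of the tested unigenes, and no division of its reads with another unigene is seen in them.

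The last 5-like unigene, Cluster-8255.124268, was also lower under LP, at a lower level. It had 1.29, 2.25 and 1.72 FPKM under HP and 0.30, 0.46 and 0.77 FPKM under LP, without overlap. The normalized count of 64.6 ± 18.3 (n = 3) under HP and 19.3 ± 9.20 (n = 3) under LP gave a 3.35-fold lower level (log2 fold change -1.74 ± 0.43, SE), between 2.78-fold without LP replicate 1 and 4.54-fold without LP replicate 3. The 3 5-like unigenes together summed to 32.6 ± 3.66 FPKM under HP and 12.8 ± 2.76 FPKM under LP (n = 3 each), 2.54-fold lower, whereas the 2 unigenes named MATE efflux family protein 5 summed to 3.89 ± 1.12 and 14.0 ± 0.757 FPKM, 3.59-fold higher.

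FPKM is scaled by length, so levels can be set against each other. The order under HP was led by the 5-like Cluster-8255.88741 (30.8 ± 3.25 FPKM, n = 3), whose libraries lay above those of every other member. Cluster-8255.13439 (3.85 ± 1.08) and the DTX1-like Cluster-8255.46540 (3.65 ± 0.794) came next and overlapped with each other, and both lay above the 5-like Cluster-8255.124268 (1.75 ± 0.481). From there down, each neighbour in the order overlapped with the next. Under LP, Cluster-8255.13439 (13.35 ± 0.51 FPKM, n = 3) and Cluster-8255.88741 (11.9 ± 2.51) led the order and overlapped, followed without overlap by Cluster-8255.46540 (8.62 ± 1.12) and then by the 8-like Cluster-8255.22361 (1.79 ± 0.0866). Cluster-8255.104902, Cluster-8255.124268 and Cluster-8255.110776 overlapped as neighbours below it, and Cluster-8255.47682 was last at 0. Ranking by normalized counts per effective length gave the same 16 ranks.

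The summed level of the 8 members did not separate the treatments. It was 36.76, 47.41 and 39.06 FPKM under HP and 33.63, 36.34 and 41.67 FPKM under LP, and these ranges overlapped. The ratio of the means was 0.906 ± 0.159 (LP over HP, SD carried over from the libraries). What differed was the make-up of the sum. The members are grouped here by their direction in these same libraries, which fixes the way the shares of the groups move. Only the size of the shares is described. The 5 members that were higher under LP held 16.5%, 19.1% and 19.9% of the sum in the HP libraries and 70.4%, 67.4% and 63.1% in the LP libraries. The 5-like Cluster-8255.88741 alone held 75.3 ± 4.08% under HP and 31.7 ± 3.18% under LP (n = 3 each), while Cluster-8255.13439 went from 9.32 ± 2.17% to 36.1 ± 3.54%. In FPKM, the 5 higher members summed to 7.64 ± 1.51 under HP and 24.8 ± 1.34 under LP (3.25-fold), and the 3 lower ones to 33.4 ± 4.25 and 12.4 ± 2.75 (2.70-fold lower). Without Cluster-8255.88741 the ratio of the sums was 2.47, so the near equality of the totals rests on that unigene.

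**Figure D2:**
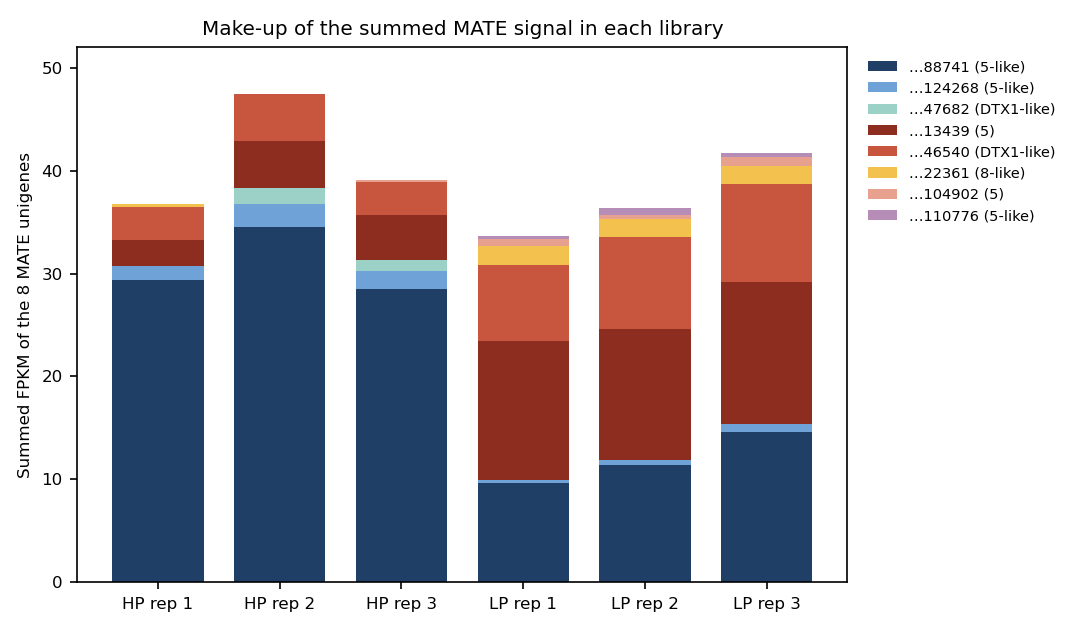
Summed FPKM (y axis) of the 8 MATE unigenes in each of the 6 libraries, with 1 coloured segment per unigene; blue and green segments are the 3 unigenes that were lower under LP and the warm and purple ones the 5 that were higher. The totals of 33.63 to 47.41 FPKM overlap between treatments, while the share of the 5 higher unigenes is 16.5% to 19.9% in the HP bars and 63.1% to 70.4% in the LP bars. The unigenes were grouped by these same values, which fixes the direction of that difference.

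The effective length of each member was recovered from count, FPKM and library total. It ranged from 602 bases for the 5-like Cluster-8255.88741 and 700 bases for the 8-like Cluster-8255.22361 to 1962 for Cluster-8255.124268 and 2029 for Cluster-8255.47682, with 1226 for Cluster-8255.46540, 1518 for Cluster-8255.13439, 1667 for Cluster-8255.104902 and 1868 for Cluster-8255.110776. The median over the tested unigenes was 1352 (quartiles 736 and 2166), so both the most abundant member under HP and the member with primers came from unigenes shorter than the lower quartile. Whether a short unigene is a piece of a longer transcript, and whether any of the 8 belong to the same gene, was not tested.

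Over 17 fits, made of the one described, 10 other settings and the 6 in which 1 library was left out, none of the 6 members that passed the filter changed sign in the fits whose fold changes were compared, those of the other scalings, tools and left-out libraries. Cluster-8255.13439 was called in 17 of them, Cluster-8255.46540 and Cluster-8255.88741 in 16 each, the 8-like Cluster-8255.22361 in 9, Cluster-8255.124268 in 8 and Cluster-8255.104902 in 3. The unigenes that did not pass the filter were tested in 5 of the fits, where Cluster-8255.110776 was called in 4 and Cluster-8255.47682 in 1. These counts describe the fits on the values that chose the members, and nothing is read from them.

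**Figure D3:**
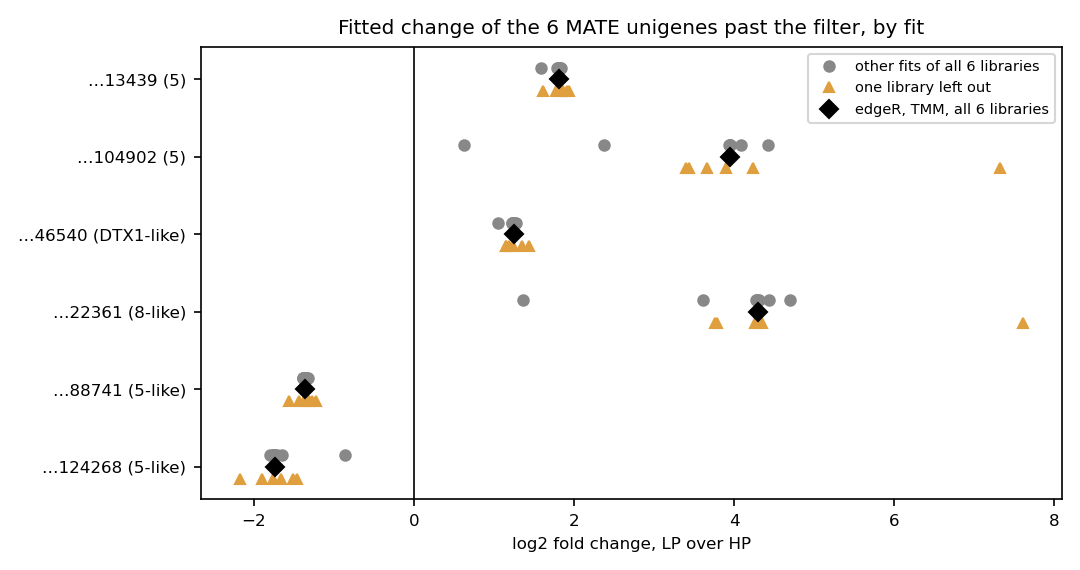
Fitted log2 fold change, LP over HP (x axis), of the 6 MATE unigenes that passed the filter on low counts; black diamonds are the edgeR fit of all 6 libraries, grey circles the other settings and orange triangles the fits with 1 library left out. No point crosses 0; Cluster-8255.13439 spans 1.59 to 1.94 and the nearly undetected Cluster-8255.104902 spans 0.63 to 7.32.

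The transporters whose profile over the 6 libraries was most like that of each member were sought among the 271 tested unigenes of the transporter table, by the root mean square difference of log2 CPM values centred on each unigene's mean. Cluster-8255.13439 was nearest to the vacuolar cation/proton exchanger 1 Cluster-8255.19981 (a difference of 0.19) and to an ABC transporter G family member 36-like unigene (0.254). Cluster-8255.46540 was nearest to an ABC transporter-like unigene (0.151) and a nucleobase-ascorbate transporter 4-like unigene (0.155). The 5-like Cluster-8255.88741 had the closest match of all, another ABC transporter G family member 36-like unigene, Cluster-8255.69214 (0.0935), followed by zinc transporter 6 (0.127). Cluster-8255.124268 was nearest to the peptide transporter PTR1 (0.246) and a heavy metal P-type ATPase (0.255). The rarely read members had looser matches, with the sulfate transporter 3.3 Cluster-8255.52452 (0.35) and nitrate transporter At1g68570 (0.43) for Cluster-8255.22361. For Cluster-8255.104902 they were an ABC transporter B family member 11-like unigene (0.485) and an inorganic phosphate transporter 1-7-like unigene (0.539). These unigenes share the libraries and the selection on the same difference, and the values are descriptions.

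The rest of the dicarboxylate transporter section did not divide in this way. All 12 of its other unigenes were tested, all 12 had a lower estimate under LP and 10 were called lower, with log2 fold changes from -1.57 to -4.32 and a median of -2.45, against a median of 0.03 over all tested unigenes. They too were selected on this difference, so the counts describe the table. FRD3 of Arabidopsis is the MATE carrier that loads citrate into the xylem for iron transport. FRD3 and 2 FRD3-like unigenes summed to 134.1, 118.0 and 124.3 FPKM under HP and to 23.2, 27.4 and 32.4 FPKM under LP, 4.53-fold lower. Under HP they stood at 125.5 ± 8.11 FPKM against 41.1 ± 5.60 FPKM for the 8 members (n = 3), and under LP at 27.7 ± 4.63 against 37.2 ± 4.09. The order of the 2 sets was thus exchanged, without overlap of the libraries in either treatment. Under LP the margin was narrow, with 32.4 FPKM in the highest library for the FRD3 set and 33.6 FPKM in the lowest for the members. Whether the FRD3 and FRD3-like unigenes are pieces of the same gene, which a sum would count more than once, was not tested.

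Multidrug and toxin extrusion protein 2-like unigenes, named after a family of carriers for organic cations, gave a sum of 11.6 ± 0.272 FPKM under HP and 1.61 ± 0.329 FPKM under LP (7.22-fold lower, n = 3). Of the 3, Cluster-8255.96666 was called lower, while Cluster-8255.6058 and Cluster-8255.6061 were not called. In those 2 the reads alternated between libraries under LP. Cluster-8255.6058 had estimated counts of 0, 38.36 and 22.58 where Cluster-8255.6061 had 23.88, 0 and 0. Together with the 8 members, these 6 other MATE-type unigenes of the section summed to 178 ± 4.06 FPKM under HP and 66.5 ± 8.67 FPKM under LP, 2.68-fold lower. All were listed because they differed between the treatments. MATE unigenes outside the section are not in this sum, so it is not the total MATE level of the roots. The 3 aluminum-activated malate transporters, named after a family of malate channels, and the 3 tonoplast dicarboxylate transporters, which carry malate across the vacuolar membrane, were all called lower.

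**Figure D4:**
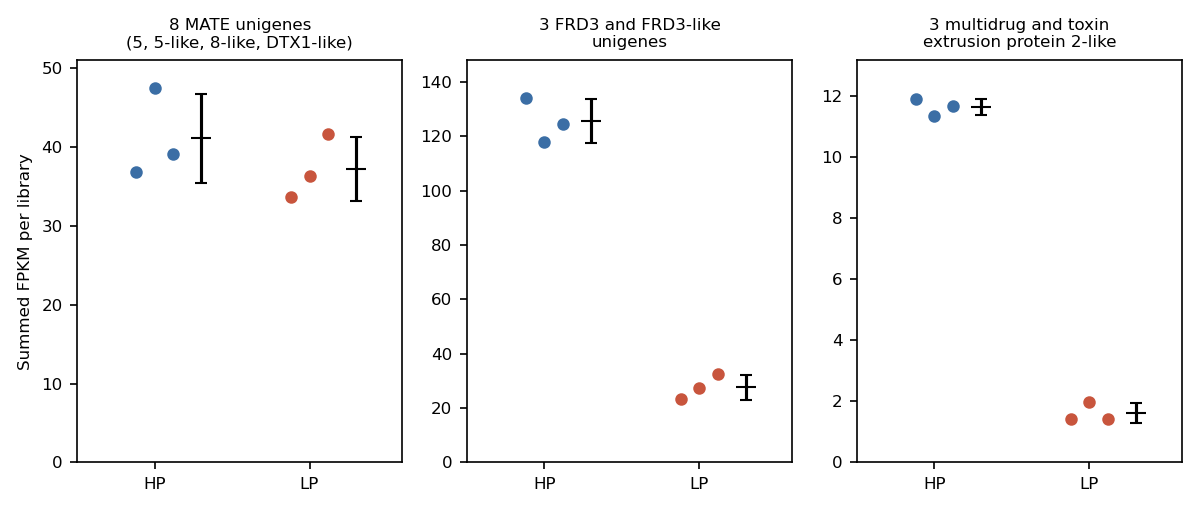
Summed FPKM per library (y axis, linear and separate for each panel, starting at 0) for the 8 MATE unigenes described here, for FRD3 with 2 FRD3-like unigenes and for 3 multidrug and toxin extrusion protein 2-like unigenes, in HP (blue) and LP (red) libraries with the mean and SD over 3 libraries in black. The sum of the 8 overlaps between treatments, while the other sums are 4.53-fold and 7.22-fold lower under LP without overlap.

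The 1272 readable entries of the study's list of changed unigenes are only a part of that list, and the rest was not searched. Among these entries, 2 more unigenes carried a MATE domain or a match to a named MATE protein, and neither was read under LP. TRANSPARENT TESTA 12 is the Arabidopsis carrier that brings flavonoids into the vacuole, and the unigene matched to it, Cluster-8255.80949, was at least 364-fold lower there, from 867 HP reads (at least 239-fold without LP replicate 1). The unigene matched to ALF5, a carrier that protects Arabidopsis roots from toxic compounds, Cluster-8255.102204, had 32 HP reads, was at least 13.4-fold lower (8.83 without LP replicate 1) and was not tested. Of the 2 citrate-binding protein-like unigenes in the same entries, Cluster-8255.16805 was called higher, with 0.37 ± 0.314 FPKM under HP and 45.9 ± 9.47 FPKM under LP (log2 fold change 6.95 ± 0.57, SE). Cluster-8255.116262, with no HP reads and 80 LP reads, was at least 21.2-fold higher under LP and was not tested. That bound was 12.6 without LP replicate 3, which held most of its reads, and 13.5 without HP replicate 1. Both lists were selected on the same difference between treatments.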

How the data were processed

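RNA of RY2 roots was sequenced in 3 LP and 3 HP libraries. The authors assembled the reads of all samples into unigenes with Trinity and estimated expression with RSEM. Their deposited estimated counts are not normalized, and 34.0% to 36.4% of those in a library were not whole numbers, since a read that matches several unigenes is divided among them. The deposited FPKM values were scaled by the authors for unigene length and library size. The submitters' processing notes name Bowtie2 2.2.3. No source used here says whether counting used strand, so overlapping and antisense unigenes are uncertain.

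Estimated counts were rounded and scaled by TMM factors. Normalized counts are rounded counts at the mean effective library size. Unigenes were filtered by filterByExpr (minimum count 10), which left 62040, and tested by quasi-likelihood in edgeR 4.0.16 (with limma 3.58.1 and R 4.3.3) with Benjamini-Hochberg adjustment. SEs are those of the difference of mean log2 CPM (prior count 2). Where a group had no reads, the bound took 3 reads over the group in their place. Such bounds pool the libraries of a group and cover counting error only. Alternatives were DESeq2 1.42.0, other scalings and filters, a test whose null is a 1-unit log2 difference, limma on log2(FPKM + 1) and log2(FPKM + 0.1), the replicate number as a block, and each library left out. The steps were tested on simulated data with less spread between libraries than here and with changes set only in more abundant unigenes. That test does not cover the members near 0. No libraries of a treatment were alike within sampling noise (chi-square over degrees of freedom, 5.94 to 17.2).

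The unigenes named are the 8 members, the other 12 of their section, MatE-domain and citrate-binding unigenes, the 2 nearest profiles of each tested member, and unigenes used to check the tissue. Members and lists were chosen with earlier results of these data known. The fold changes and p-values in the study's tables were not used, and neither were the qRT-PCR values.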

Additional observations from a re-analysis of the deposited data

How the results depend on the processing

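Relative to 8183 called unigenes and 5 called members, a test with a log2 difference of 1 as its null called 3053 unigenes and 1 member, Cluster-8255.13439. The replicate number as a block gave 5167 unigenes and 3 members (Cluster-8255.13439, Cluster-8255.46540 and Cluster-8255.88741). Deviations of same-numbered libraries correlated at -0.0057, 0.040 and 0.049. Across treatments, libraries of different numbers gave -0.063 to 0.026. All these values are small, and they do not settle whether the numbers pair the samples. With 1 library left out, the count of all called unigenes ranged from 5586 to 8183, that of members from 3 to 6 and the ratio of the summed FPKM from 0.852 to 0.982. Without LP replicate 1 or LP replicate 2, 3 members were called, and the same 3 as with the block. Cluster-8255.22361 was called in 1 of the 6 (without HP replicate 1) and Cluster-8255.124268 in 1 of the 6 (without LP replicate 3). DESeq2 called 9644 of 62040 tested unigenes and 6 of 6 tested members, and limma on log2(FPKM + 0.1) called 9972 of 62040 and 6 of 6. With no filter, 7019 of 152344 tested unigenes and 4 of 8 tested members were called. For limma on log2(FPKM + 1) these were 7396 of 62040 and 4 of 6. Without the most abundant member the summed FPKM ratio was 2.47. Of 84 log2 fold changes of members under alternatives, 77 lay within 1 SD between replicates of the reported value, 7 lay outside it and 0 changed sign. The HP libraries were the shallower ones, and for Cluster-8255.104902, Cluster-8255.110776 and Cluster-8255.22361 the levels near 0 under HP rest on 0 to 3 reads. Cluster-8255.47682 had no reads in the deeper LP libraries and none in HP replicate 1.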
